A study of Homo sapiens with 15 samples.

Results

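The transcripts of 10 proteins that are reported to bind the deubiquitinase USP7, or to be stabilised by it, were followed in DLD1 cells, a human colorectal cancer cell line. They are GMPS, TRIM27, RNF168, RAD18, CLSPN, DAXX, UVSSA, ERCC6, HUWE1 and TRIP12. They were taken by name as reported partners, out of 22705 genes analysed, and all 10 were among the 15134 genes with at least 10 normalized counts in at least 3 libraries. Stranded poly(A) RNA-seq was made from 5 groups of 3 libraries each. The KO group is a USP7 knockout line that carries plasmids for a doxycycline-inducible GFP-USP7 and for the Tet-On activator, was selected in G418 and was given no doxycycline. The day 1, day 3 and day 9 groups are that line given 1 µg/ml doxycycline for 1, 3 or 9 days, and the WT group is the untreated parental line, which carries neither plasmid. The labels do not say whether the knockout line is 1 clone, and doxycycline in parental cells was not analysed here. Differences between KO and WT therefore cover everything that separates the lines, and USP7 loss cannot be told apart from the rest. In bulk libraries, fewer cells of a kind and less RNA per cell cannot be told apart either.

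USP7 removes ubiquitin from other proteins and so protects many of them from the proteasome. Its partners here act mostly on chromatin and damaged DNA, as ubiquitin ligases, checkpoint adaptors and repair factors, and the stabilisation reported for them acts on the protein, which RNA-seq does not measure. The question the transcripts can answer is whether the messages of these proteins also move when USP7 is lost or put back.

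The check of the labels was USP7 itself (ENSG00000187555). It averaged 1389.3 ± 17.6 normalized counts in KO cells, 8238.9 ± 375.3 at day 1, 7827.9 ± 341.2 at day 3, 4787.9 ± 335.7 at day 9 and 3391.8 ± 25.4 in WT cells (SD, n = 3 each, as in every mean below). USP7 thus fell by 59% in KO cells, where its message was still measured, and stood above WT at all 3 times of induction, in the directions the labels give. Over the 5 groups the range of their mean log2 levels was 0.08 (HUWE1) to 0.31 (UVSSA), each below the median of 0.33 over all tested genes. Of all tested genes, 53.5% had a wider range than UVSSA and 97.4% a wider range than HUWE1. Every partner had at least 478 normalized counts in every library, whereas tested genes include sparse ones, whose counting noise is wider. The partners were not compared with genes of like abundance. Log2 levels and differences are of normalized count + 1 throughout, and adjusted p comes from limma, by Benjamini-Hochberg over all 15134 tested genes, with a threshold of 0.05.

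**Figure D1:**
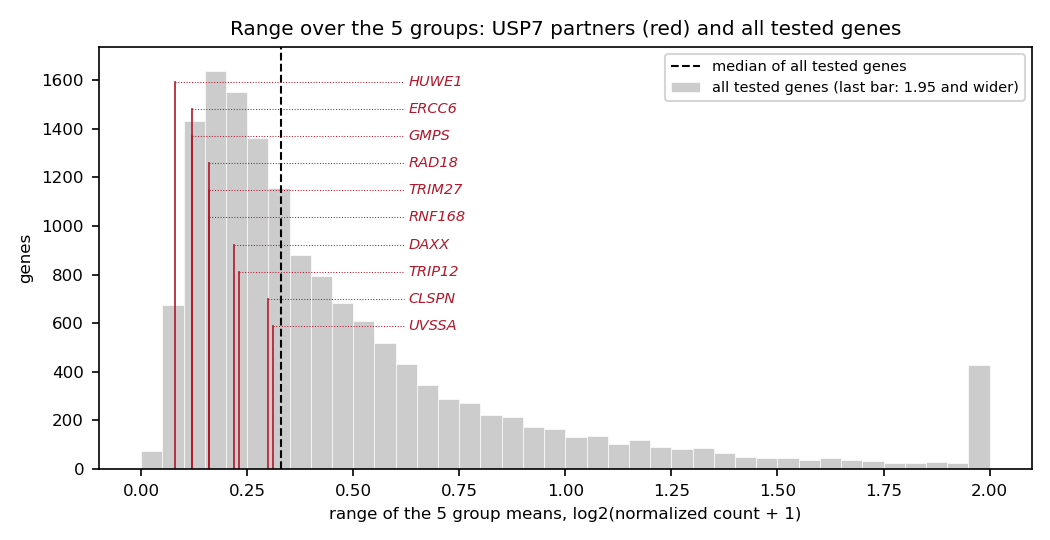
Histogram of the range of the 5 group means for all tested genes (x axis, log2 units of normalized count + 1, y axis, number of genes), with the 10 partners as red lines and the median of all tested genes as a dashed line. All 10 red lines lie left of the dashed line at 0.33, with HUWE1 at 0.08 and UVSSA at 0.31.

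Several properties of the libraries touch the results. Total normalized counts were 14741094 to 15347043 per library, and 20857 to 21314 genes were above 0. The column names carry 1 project code for the 9 KO, day 1 and WT libraries and another for the 6 day 3 and day 9 libraries, so that the codes cannot be told apart from the difference when day 3 or day 9 is set against KO or WT. Comparisons of KO with WT, day 1 with KO and day 9 with day 3 lie within 1 code. In the day 3 and day 9 libraries, 37 of 44 genes that were listed at 0 in every KO and day 1 library and averaged at least 50 in WT were above 0 in all 6 libraries, at a median of 21.2% of WT at day 3 and 21.5% at day 9. Their variance over those 6 libraries was a median of 0.062 times the mean, against 0.927 in WT, and counting alone gives a ratio near 1. The ratio was under 1 for 34 of the 37. For the 10 partners the ratio within a group of 3 libraries ran from 0.566 to 8.95 at day 3 and from 0.104 to 12.4 at day 9. In WT it ran from 0.293 to 2.15. These are ranges over genes within 1 group, not a median over 6 libraries, so they do not compare directly with 0.062. What produced the low median spread of those 37 genes, and its part in the day 3 and day 9 values, was not tested. Day 1 replicate 1 stood apart from its group: its difference from replicates 2 and 3 had 13.3 and 9.52 times the variance of counting, against 1.49 between replicates 2 and 3, and it was the highest day 1 library for GMPS, RNF168, RAD18, CLSPN, ERCC6 and TRIP12. Day 9 replicate 1 stood apart to a lesser degree, with 5.19 and 4.29 times, against 2.12 between day 9 replicates 2 and 3. Of 10 colon epithelial markers 9 were in the table, each with at least 10 normalized counts in every library, summing to 98241 to 157855. Of the markers of other cells, 1 of 5 for leukocytes (17 to 48 normalized counts), 1 of 5 for fibroblasts (9 to 26) and 1 of 4 for endothelial cells (22 to 57) were in the table.

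In WT cells the partners ranged widely in abundance. Per kilobase of annotated exon, HUWE1 was highest with 585 ± 8.49 normalized counts, followed by DAXX (422 ± 9.06), TRIP12 (393 ± 7.34) and GMPS (331 ± 6.71). CLSPN lay lower at 198 ± 5.86, as did RAD18 at 131 ± 5.22, RNF168 at 94.6 ± 2.44, UVSSA at 57.8 ± 1.71 and ERCC6 at 38.5 ± 0.926. TRIM27 (203 ± 2.73) and CLSPN were neighbours that did not differ beyond their spread. USP7 itself stood at 426 ± 3.19, close to DAXX. These levels per length use merged exons of a gene annotation of another build, since the labels do not name the annotation used for counting. The order depends on that length. UVSSA and RAD18 averaged 912.1 and 911.4 normalized counts in WT, and differ per kilobase through merged lengths of 15.8 and 6.98 kb.

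The promoters of the 3 partners with the widest range, UVSSA, CLSPN and TRIP12, are shown because their transcripts carry the results that follow. Each window runs from 250 bases before to 50 after an annotated start in RefSeq (GRCh38.p14), 5′ to 3′ on the strand of the gene, and capitals mark the matches described after them. The windows are UVSSA on the plus strand at chr4:1346958-1347257, CLSPN on the minus strand at chr1:35769929-35770228 and the first of 3 TRIP12 windows on the minus strand at chr2:229921740-229922039.
UVSSA: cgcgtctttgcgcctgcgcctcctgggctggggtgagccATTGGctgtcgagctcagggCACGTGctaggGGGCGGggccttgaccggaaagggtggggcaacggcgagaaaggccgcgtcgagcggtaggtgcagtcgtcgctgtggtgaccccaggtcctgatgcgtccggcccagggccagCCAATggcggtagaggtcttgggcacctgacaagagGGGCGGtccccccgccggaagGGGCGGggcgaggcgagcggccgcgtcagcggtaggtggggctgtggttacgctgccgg
CLSPN: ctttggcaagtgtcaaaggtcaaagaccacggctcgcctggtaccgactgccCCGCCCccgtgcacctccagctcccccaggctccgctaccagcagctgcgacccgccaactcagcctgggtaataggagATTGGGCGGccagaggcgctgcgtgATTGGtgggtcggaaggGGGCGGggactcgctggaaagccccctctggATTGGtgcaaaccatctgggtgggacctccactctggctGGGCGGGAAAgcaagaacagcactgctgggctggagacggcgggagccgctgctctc
TRIP12: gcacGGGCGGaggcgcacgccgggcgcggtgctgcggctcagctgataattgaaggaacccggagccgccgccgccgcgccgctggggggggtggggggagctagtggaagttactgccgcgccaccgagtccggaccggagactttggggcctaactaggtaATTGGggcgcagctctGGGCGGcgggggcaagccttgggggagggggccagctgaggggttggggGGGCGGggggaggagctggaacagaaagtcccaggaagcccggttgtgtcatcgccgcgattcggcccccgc

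Short motifs were searched on both strands of the windows of the 8 partners matched in the promoter table, which left TRIM27 and DAXX unmatched. Shares are given first over 35116 promoter windows of all genes and then over 10793 tested genes with a match in any of their windows, since ERCC6, HUWE1 and TRIP12 have several. The E2F motif TTTCCCGC was in the CLSPN window alone of the partners (1.63% of windows, 3.26% of tested genes). It spans the start, from 5 bases before it, on the opposite strand. It overlaps a GGGCGG that begins 7 bases before the start. CCAAT, the NF-Y motif, was in windows of CLSPN (3 matches), UVSSA, HUWE1 and TRIP12 (34.6% and 43%). GGGCGG, the SP1 motif, was in at least 1 window of all 8 (45% and 76.5%), and 1 of the CLSPN matches overlaps a CCAAT. The E-box CACGTG was in windows of UVSSA and ERCC6 (7.26% and 12.4%), the NRF1 motif CGCATGCG in windows of RAD18, ERCC6 and HUWE1 (2.02% and 4.4%), and the ETS motif CCGGAAGT in those of RNF168 and RAD18 (4.14% and 9.77%). The CHR motif TTTGAA was in a window of ERCC6 (15.2% and 13.7%). TTTGGCGC (E2F, 0.652% and 1.28%) and TGACGTCA (CRE, 1.85% and 3.84%) were in no partner's window. A match describes these letters only.

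KO was set against WT to ask which partner messages differ between the knockout line and its parent. Of the 10 partners, TRIM27, CLSPN and DAXX fell in KO cells, UVSSA rose, and the other 6 did not pass the test. The 4 that passed stand beside 49.7% of all tested genes that passed in the same comparison, so the count is no higher than the background. The median absolute log2 difference was 0.12 over the partners and 0.24 over all tested genes, which were not matched for abundance. The KO and WT libraries did not overlap for 8 partners, and for 63.1% of tested genes. The call for DAXX was lost, and those for CLSPN and UVSSA kept, after scaling to equal medians (adjusted p = 0.0746 for DAXX). Fitted on the 6 KO and WT libraries alone, 8 partners passed, with GMPS, RAD18, RNF168 and TRIP12 added, beside 60.5% of the genes tested in that fit.

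Day 1 was set against KO to ask what 1 day of GFP-USP7 brought. TRIP12 rose and no other partner passed, which is 1 of 10 against 10.9% of tested genes. Libraries did not overlap for TRIP12 and DAXX, 2 of 10 partners, and for 26.8% of tested genes. At day 3, TRIP12 and CLSPN rose against KO, 2 of 10 beside 27.4% of tested genes. At day 9 TRIP12 alone passed against KO, beside 25.9% of tested genes. UVSSA alone passed between day 9 and day 3, where it rose, beside 7.42% of tested genes. Against WT, UVSSA was higher and DAXX lower at day 9, beside 21.8% of tested genes. The day 1, day 3 and day 9 comparisons share the KO libraries, so their agreement is no separate evidence.

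**Figure D2:**
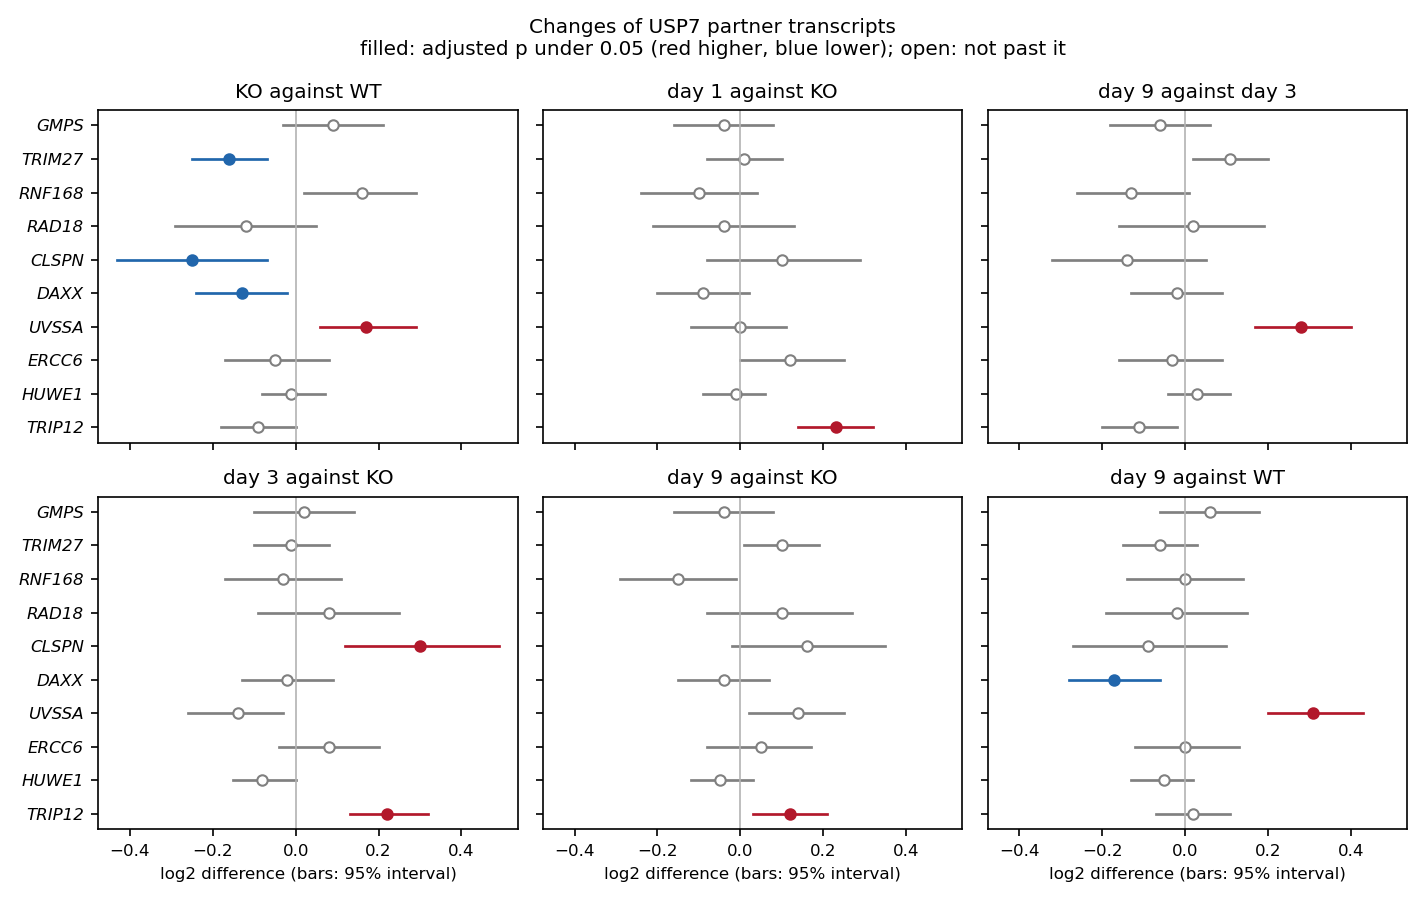
Log2 difference of each partner in the 6 comparisons (x axis, log2 units of normalized count + 1), with bars for the 95% interval and filled points where adjusted p was under 0.05. TRIP12 is filled in all 3 comparisons with KO, UVSSA in the 3 comparisons of KO with WT, day 9 with day 3 and day 9 with WT, and no point lies beyond 0.31.

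TRIP12 (ENSG00000153827), a HECT-type ubiquitin ligase that limits RNF168 and that USP7 is reported to stabilise, rose on induction. It had 4611, 4723 and 4584 normalized counts in the KO libraries. With doxycycline it had 5850, 5135 and 5365 at day 1, 5274, 5424 and 5570 at day 3 and 5145, 4992 and 4971 at day 9, against 4983, 4850 and 5028 in WT cells. Every library with doxycycline, and every WT library, lay above all KO libraries. The log2 difference from KO was 0.23 at day 1 (95% interval 0.14 to 0.32, adjusted p = 0.00151) and 0.22 at day 3 (0.13 to 0.32, adjusted p = 0.000552). Both calls held in every other setting and without each library in turn. At day 1 the difference was 0.18 without day 1 replicate 1, the highest library, with an adjusted p of 0.00135. At day 9 it was 0.12 (0.03 to 0.21), and its adjusted p of 0.04998 was at the threshold and was lost under scaling to equal medians (0.129) and without any 1 of the 6 libraries (0.071 to 0.146). KO cells stood 0.09 below WT in log2 units (interval -0.18 to 0.00), which did not pass (adjusted p = 0.077). Ordered by mean, KO was lowest, then WT, day 9, day 3 and day 1. WT and day 9 overlapped (log2 difference 0.02, -0.07 to 0.11), and so did day 3 and day 1.

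HUWE1 (ENSG00000086758), the other HECT ligase among the partners, is a very large protein with many substrates. It had 10196, 10356 and 9813 normalized counts in KO cells, 9986, 10258 and 9868 at day 1, 9711, 9413 and 9650 at day 3, 10133, 9788 and 9507 at day 9 and 10039, 10115 and 10324 in WT cells. It passed in none of the 6 comparisons. The intervals were narrow, from -0.08 to 0.07 for KO against WT and from -0.09 to 0.06 for day 1 against KO. At day 3 all libraries lay below those of KO, with a log2 difference of -0.08 (-0.15 to 0.00, adjusted p = 0.121).

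**Figure D3:**
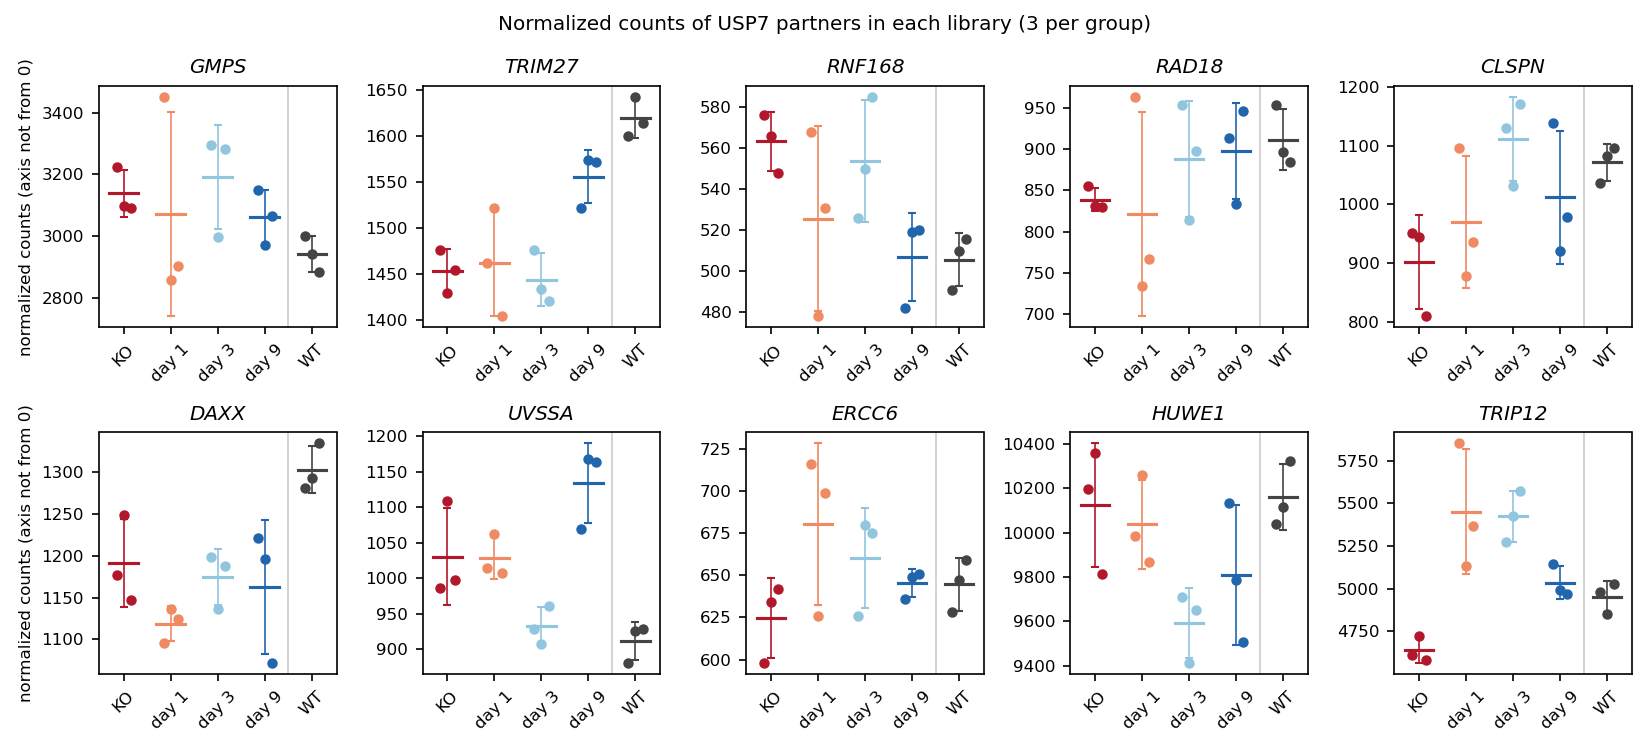
Normalized counts of each partner in every library (points), with the group mean (horizontal line) and SD (bar), for KO, day 1, day 3, day 9 and WT with 3 libraries each; y axes do not start at 0. TRIP12 is lowest in KO in all 3 libraries, UVSSA is highest at day 9 in 2 of 3 libraries, and the SD of day 1 is 331.2 for GMPS, 123.9 for RAD18 and 364.9 for TRIP12.

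UVSSA (ENSG00000163945) brings USP7 to RNA polymerase II stalled at lesions in transcribed genes. It had 986, 1109 and 997 normalized counts in KO libraries, against 881, 926 and 929 in WT libraries, with no overlap and a log2 difference of 0.17 (0.06 to 0.29, adjusted p = 0.0127). That call was lost without KO replicate 2, the highest of the 3 (0.12, adjusted p = 0.0987), or without WT replicate 1 (adjusted p = 0.062). Induction gave 1015, 1063 and 1008 at day 1, 929, 907 and 961 at day 3 and 1069, 1168 and 1164 at day 9. The day 1 libraries lay within the KO range, the day 3 libraries overlapped WT, and the day 9 libraries lay above both other induced groups. Day 9 stood 0.28 log2 units above day 3 (0.17 to 0.40, adjusted p = 0.00281) and 0.31 above WT (0.20 to 0.43, adjusted p = 0.000281), with no overlap in either case. Both calls held in every other setting and without each library, and that between day 9 and day 3 lies within 1 project code. Against KO, neither day 3 (-0.14, adjusted p = 0.0605) nor day 9 (0.14, adjusted p = 0.0726) passed. Day 3 passed with only the groups compared (adjusted p = 0.0379), and day 9 without KO replicate 2 (0.19, adjusted p = 0.0228) or day 9 replicate 1 (0.18, adjusted p = 0.0349). A replicate block also took both past the threshold. By mean, WT and day 3 were lowest and overlapped, day 1 and KO were next and overlapped, and day 9 was highest.

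ERCC6 (ENSG00000225830), or CSB, is the remodelling ATPase of transcription-coupled repair that UVSSA and USP7 protect. It had 598, 634 and 642 normalized counts in KO cells, 716, 626 and 699 at day 1, 626, 680 and 675 at day 3, 636, 649 and 651 at day 9 and 628, 647 and 659 in WT cells. All groups overlapped with KO, and no comparison passed. The largest difference was 0.12 log2 units for day 1 against KO (0.00 to 0.25, adjusted p = 0.218). Between day 9 and WT, where UVSSA rose, the log2 difference of ERCC6 was 0.00 (-0.12 to 0.13).

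CLSPN (ENSG00000092853) encodes claspin, the adaptor through which the kinase ATR activates CHK1 at stalled forks. Its 3 KO libraries had 952, 944 and 810 normalized counts, against 1036, 1082 and 1096 in WT. The groups did not overlap, and CLSPN fell by 0.25 log2 units (interval -0.43 to -0.07, adjusted p = 0.0228). The call rested on the lowest library, since the difference was -0.18 (adjusted p = 0.123) without KO replicate 3, and it was also lost without WT replicate 2 (0.0612) or WT replicate 3 (0.0705). Induction gave 1096, 878 and 937 at day 1, 1130, 1032 and 1171 at day 3 and 1138, 921 and 978 at day 9. Only the day 3 libraries lay wholly above KO, and CLSPN rose there by 0.30 log2 units (0.12 to 0.49, adjusted p = 0.0145). Without KO replicate 3 that difference was 0.23 (adjusted p = 0.082), and it was also lost without day 3 replicate 1 (0.0514) or day 3 replicate 3 (0.0662). Day 1 (0.10, -0.08 to 0.29) and day 9 (0.16, -0.02 to 0.35) did not pass against KO. A non-coding antisense gene, AL354864.1, shares 280 bases of CLSPN exon and averaged 1.99 normalized counts, and whether counting used the strand is not stated in the labels.

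RAD18 (ENSG00000070950), the ligase that marks the replication clamp PCNA to start bypass of lesions, passed in no comparison. It had 855, 831 and 830 normalized counts in KO cells, 963, 734 and 767 at day 1, 953, 814 and 898 at day 3, 913, 834 and 946 at day 9 and 953, 897 and 884 in WT cells. All KO libraries lay below all WT libraries, by 0.12 log2 units in the mean (-0.29 to 0.05, adjusted p = 0.24). Day 1 replicate 1 was the highest and replicate 2 the lowest of all 15 libraries, and the group's SD was 123.9 around a mean of 821.2.

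RNF168 (ENSG00000163961) ubiquitinates histone H2A beside DNA breaks and so calls in repair factors. It had 576, 566 and 548 normalized counts in KO libraries, against 491, 510 and 516 in WT libraries. The groups did not overlap, yet the log2 difference of 0.16 (0.02 to 0.29) missed the threshold with an adjusted p of 0.059. Induced cells had 568, 478 and 531 at day 1, 526, 550 and 585 at day 3 and 482, 519 and 520 at day 9. At day 9 every library lay below every KO library (-0.15, -0.29 to -0.01, adjusted p = 0.1), and the mean of 506.9 ± 21.8 stood beside 506.0 ± 13 in WT. RNF168 shares 82 exon bases with an antisense gene that has no row in the table.

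TRIM27 (ENSG00000204713), a ubiquitin ligase that works with MAGEL2 and USP7 on the WASH complex at endosomes, had the lowest adjusted p of the partners between KO and WT. It had 1476, 1429 and 1454 normalized counts in KO libraries, against 1600, 1642 and 1614 in WT libraries. The groups did not overlap, and TRIM27 fell by 10.2% (log2 difference -0.16, -0.25 to -0.07, adjusted p = 0.00524). The call held in every other setting and without each library in turn, with adjusted p of 0.0106 to 0.0269 without one. Induction left it at 1462, 1521 and 1404 at day 1 (0.01 against KO, -0.08 to 0.10) and 1476, 1434 and 1421 at day 3. The 3 day 9 libraries, with 1522, 1574 and 1571, lay above all KO and day 3 libraries and below all WT libraries. The day 9 difference was 0.10 from KO (0.01 to 0.19, adjusted p = 0.104), 0.11 from day 3 (adjusted p = 0.144) and -0.06 from WT (adjusted p = 0.386), and none passed.

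DAXX (ENSG00000204209), a histone chaperone of PML bodies that also links USP7 to MDM2, had lower values in every library of the knockout line than in WT. It had 1177, 1249 and 1147 normalized counts in KO cells, 1096, 1136 and 1125 at day 1, 1199, 1136 and 1188 at day 3, 1221, 1196 and 1072 at day 9 and 1281, 1293 and 1334 in WT cells. The highest of the 12 libraries of the knockout line, 1249, lay below the lowest WT library, 1281. DAXX fell by 0.13 log2 units in KO cells (interval -0.24 to -0.02, adjusted p = 0.0474). That call was lost in 10 other settings, among them 5 of the 6 that leave out a library and the authors' deposited table (adjusted p = 0.0981). At day 9 it was 0.17 below WT (interval -0.28 to -0.06, adjusted p = 0.029), and the difference was -0.11 without day 9 replicate 3 (adjusted p = 0.182). The call was also lost without WT replicate 1 (-0.18, adjusted p = 0.0565), 2 (-0.17, 0.0689) or 3 (-0.15, 0.11), where the size of the difference moved little. No induced group passed against KO. DAXX shares 441 exon bases, 14.3% of its length, with the gene AL662820.1 on the same strand.

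GMPS (ENSG00000163655) makes GMP from XMP, and its protein binds USP7 and increases its activity. It had 3225, 3098 and 3091 normalized counts in KO libraries, against 3001, 2940 and 2882 in WT libraries. These did not overlap, and the log2 difference of 0.09 (-0.03 to 0.21) did not pass (adjusted p = 0.188). The induced groups had 3451, 2857 and 2901 at day 1, 3296, 2996 and 3281 at day 3 and 3148, 2971 and 3065 at day 9. All overlapped with KO. Day 1 replicate 1 was the highest and replicates 2 and 3 among the lowest of the series, and without replicate 1 the difference from KO was -0.12 with an adjusted p of 0.0496, against -0.04 (0.759) with it.

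The authors' deposited table gave the same calls as the limma test against KO at day 1 (TRIP12) and day 3 (TRIP12 and CLSPN). It passed TRIM27, CLSPN and UVSSA between the lines, with DAXX at 0.0981, and no partner at day 9, with TRIP12 at 0.0739.

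Across the 15 libraries some partners varied together, given as a description of libraries that share groups and project codes. The highest Pearson r of log2 levels between 2 partners was 0.75 for ERCC6 and TRIP12, then 0.67 for RAD18 and CLSPN. The lowest was -0.64 for TRIM27 and RNF168. The tested genes most like TRIP12 were the deubiquitinase gene USP9X (r = 0.94), the proton pump gene ATP6V1A (0.93) and the beta-catenin gene CTNNB1 (0.93). Those most like CLSPN were PARP1 (0.93), which encodes a DNA break sensor, RTTN (0.93) and the zinc finger gene ZNF714 (0.90). UVSSA was most like the pseudogene HERC2P2 (0.94), whose reads may be shared with HERC2, and NSMF and C6orf136 (0.88 each).

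Around the partners, 9 lists of 13 to 38 tested genes each gave the wider pathways. In the RAD18 and lesion bypass list, 8 of 18 genes fell in KO cells and 1 rose. SLF2, which recruits the SMC5/6 complex, had 779.3 ± 33.6 normalized counts in KO and 1257.6 ± 15.5 in WT (log2 difference -0.69), and the bypass polymerase POLI had 278.8 ± 9.7 in KO and 417.3 ± 24.6 in WT (-0.58). ZRANB3, a fork remodeller, differed by -0.53. HLTF, a ligase that extends the RAD18 mark on PCNA, was listed at 0 in all KO and day 1 libraries, at 25 to 26 at day 3 and day 9, and at 109, 139 and 122 in WT. HLTF is among the 37 genes described above, most of them of low spread. In the list of CLSPN and the ATR checkpoint, 8 of 21 fell and 3 rose. TIMELESS, a partner of claspin at the fork, stood at 2227.4 ± 98.4 in KO and 3216.1 ± 71.7 in WT (-0.53), beside -0.25 for CLSPN. The mitotic kinase PLK1 fell by 0.35 and TOPBP1, an activator of ATR, by 0.21, while FBXW11, a ligase subunit, rose by 0.34.

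In the RNF168 pathway 5 of 21 genes rose and 7 fell in KO cells. The kinase ATM, which starts this pathway at breaks, had 1306.7 ± 42.4 normalized counts in KO and 2050.8 ± 29 in WT (-0.65). BRCA1, a repair protein of this pathway, had 1209.1 ± 37.4 in KO and 1635.7 ± 28.1 in WT (-0.44). BABAM2, a subunit of a BRCA1 complex, fell by 0.50, and PAXIP1, a protein recruited to breaks, rose by 0.33. Of the genes of transcription-coupled repair, 4 of 22 rose and 5 fell, among them ERCC1, a nuclease subunit (-0.40), POLR2A, the large subunit of RNA polymerase II (-0.23), and CUL4B, a ligase scaffold (-0.20). GTF2H2 rose by 0.47, but it has near-identical copies and its value is uncertain. In the list of DAXX and PML bodies, 4 of 17 rose and 6 fell, with SP100, a PML body protein, at 528.1 ± 13.2 in KO and 716.7 ± 3.5 in WT (-0.44). H3-3A and H3-3B, the genes of the histone that DAXX deposits, fell by 0.36 and 0.24, and both have processed copies in the genome. ASF1B, another histone chaperone, fell by 0.32.

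Purine synthesis around GMPS had 9 of 19 genes higher and 3 lower in KO. GART, which catalyses early steps of the pathway, stood at 5171.4 ± 137.9 in KO and 3760.9 ± 62.2 in WT (0.46). The enzymes that make the GMPS substrate differed, since IMPDH1 rose by 0.55 and IMPDH2 fell by 0.24. GMPR2, which turns GMP back to IMP, fell by 0.26. Of the other HECT ligases, 4 of 25 rose and 8 fell, with AREL1 (-0.51) and NEDD4L (0.38) as examples and HERC5 at 2, 3 and 2 normalized counts in KO and 129, 113 and 117 in WT. HECW1 averaged 5.0 in KO and 22.9 in WT. The list of TRIM27 and WASH had 2 of 13 higher, UBE2O (0.28) and VPS26B (0.20), and 1 lower, WASHC3 (-0.22). Of 38 other reported USP7 partners 8 rose and 13 fell. ABCB1, a drug efflux pump, had 4456.7 ± 113.8 in KO and 1225.5 ± 58.4 in WT (1.86), and the mitotic kinase NEK2 fell by 0.71. MAGED1 was listed at 0 in all KO libraries and at 771 to 828 in WT. These counts are a description beside the 49.7% of tested genes that passed.

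At day 1 against KO, where 10.9% of all tested genes passed, the share of list genes that passed ran from 0 of 13 for TRIM27 and WASH to 21.1% for purine synthesis (0 higher, 4 lower of 19). Transcription-coupled repair had 18.2% (3 higher, 1 lower of 22) and the other partners 15.8% (3 higher, 3 lower of 38). The list genes named next were picked for their difference between KO and WT, and day 1 is set against the same KO libraries. A move back toward WT at day 1 is therefore no separate evidence. IMPDH1, higher in KO than in WT, fell at day 1, with 1408.7 ± 183.9 normalized counts at day 1 and 1813.1 ± 99.9 in KO (-0.37, adjusted p = 0.00562). IMPDH2, which was already lower in KO than in WT, fell further by 0.17. ATM rose by 0.24 (1546.5 ± 129.1 at day 1 and 1306.7 ± 42.4 in KO), and ERCC1 and POLR2A rose by 0.32 and 0.30. GTF2H2 fell by 0.43 (adjusted p = 0.0121), with the uncertainty of its copies. Neither TIMELESS (0.00) nor CLSPN (0.10) passed. At day 3 against KO, beside 27.4% of all tested genes, the share that passed was 57.9% in the purine list (2 higher, 9 lower of 19) and 50% among the other partners (13 higher, 6 lower of 38). It was 15.4% to 33.3% in the remaining lists. At day 9 against KO, beside 25.9% of all tested genes, 6 of 18 lesion bypass genes rose and 0 fell, and 2 of 21 ATR checkpoint genes rose and 1 fell. Of 19 purine genes, 1 rose and 5 fell. In the other lists the counts that rose and fell were 5 and 3 for the RNF168 pathway, 4 and 2 for transcription-coupled repair, 6 and 2 for DAXX and PML bodies, and 5 and 3 for HECT ligases. For TRIM27 and WASH they were 0 and 1, and for the other partners 9 and 4. At day 3 and day 9 these counts include genes such as HLTF and MAGED1 whose values have the low spread described above.

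**Figure D4:**
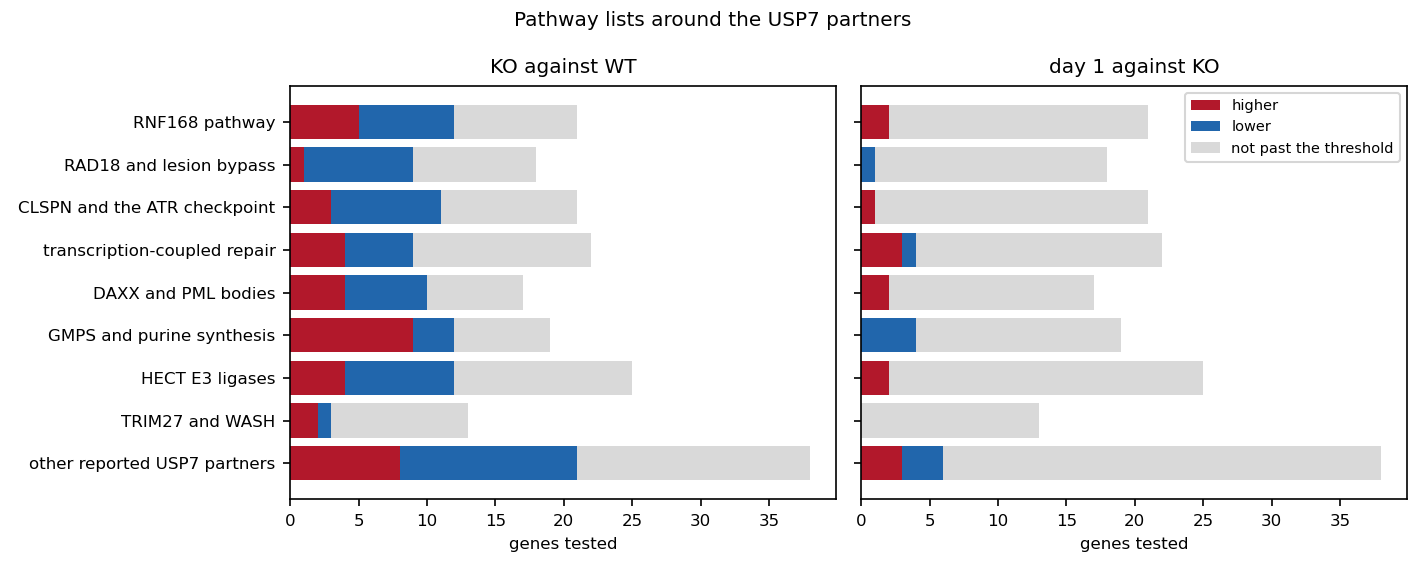
Number of tested genes in the 9 lists (x axis) that passed the test as higher (red) or lower (blue), or did not pass (grey), for KO against WT (left) and day 1 against KO (right). In KO against WT the purine list has 9 of 19 genes higher and 3 lower and the lesion bypass list 1 of 18 higher and 8 lower, and at day 1 no list has more than 6 genes past the threshold.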

How the data were processed

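The 15 libraries come from 1 deposited table. Per the submitters' processing notes, the authors used HISAT2 2.1.0, HTSeq and DESeq2 with build hg19. Their annotation, strand option and other versions were not given in the sources used here. Values deposited are labelled normalized counts, a signal named for dividing each library's counts by its size factor. Whether that division alone made them was not tested. The 37 genes described above had a median variance of 0.062 times the mean over the 6 day 3 and day 9 libraries, against 0.927 in WT. Each library's values are whole multiples of 1 step of its own (0.99 to 1.007), which rounding to whole numbers would not give. Whether those multiples are the original reads was not settled. Reads were therefore not recovered, and the depth behind a value is known only through these totals. Per the file headers, the authors also deposited log2 fold changes and adjusted p-values for 4 comparisons, used only where named.

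Of 22706 genes, 1 was left out for a cell that holds text, and 22463 had a symbol, paired by Ensembl ID. A count test had been planned for a table of counts. Normalized values were found, so log2(value + 1) was fitted with limma 3.58.1 (statmod 1.5.0, R 4.3.3) on all 15 libraries, 1 mean per group, with trend and robust options, for genes with at least 10 in at least 3 libraries. Adjusted p is Benjamini-Hochberg, two-sided, threshold 0.05. The fit was tested on simulated data. The median standard error was 0.087 log2 units. Replicates are labelled biological with no word on separate cultures, so p-values reflect no more than the spread among these libraries, and that may be technical. No library was a duplicate of another.

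The partners and the 9 lists were chosen with earlier results of these data known. All partners are named, and of each list up to 4 genes with the lowest adjusted p in KO against WT, named also at day 1, which was added after seeing the data. The results of some genes are not reported here. The 3 partners with the widest range were matched to the 3 genes with the highest Pearson r. Exon lengths come from merged GENCODE exons and promoters from RefSeq. Proteins were not used here. Alternatives covered scaling, pseudocounts, filters, the fit's options and libraries, each library left out and a replicate block. Figures were drawn with matplotlib 3.10.9 in Python 3.11.15 (numpy 2.4.6, pandas 2.3.3).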

Additional observations from a re-analysis of the deposited data

How the results depend on the processing

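Of 960 values of the 10 partners under other settings, 913 kept their side of the threshold, 37 lost it and 10 gained it. None reversed as a call, and 13 that passed in neither setting changed sign. Between KO and WT, 4 partners passed in the main fit (beside 49.7% of tested genes) and 8 with only the groups compared (60.5%). Without the trend and robust options 2 passed (47.6%), and with a library left out 2 to 3 (42.8% to 44.2%). At day 1 against KO, 632 genes passed with only the groups compared against 1650, 955 to 2416 with a library left out (2416 without day 1 replicate 1), and 1 to 2 partners. A fit of only the KO, day 1 and WT libraries was added after seeing the data. It gave the same partner counts in both comparisons, 4 and 1, beside 49.1% and 8.76% of tested genes. At day 3 against KO, 1 to 2 partners passed with a library left out, beside 21.3% to 22.6% of tested genes. With only the groups compared 3 passed (36.5%), and with a replicate block 3 (30.5%). At day 9 against KO, 0 partners passed under equal medians (24.4%), TMM factors (25.9%), pseudocounts of 0.5 (25.8%) and 5 (25.9%) and neither option (23.2%). Nor did any with no filter (16.1%) or by the authors' p (13.9% of all genes analysed). With a replicate block 2 passed (28.4%), and with a library left out 0 to 1 (19.9% to 22.5%). Between day 9 and day 3, 628 to 927 genes passed with a library left out, against 1123. At day 9 against WT, 1 partner passed with neither option (beside 19% of tested genes) and 1 to 2 with a library left out (15.5% to 19.6%). The causes were not tested. Libraries of the groups compared were also correlated after each gene's group mean was subtracted, so that r is of the remainders and not of the levels. Same-numbered libraries then correlated above 0.1 in at most 2 of 3 pairs, and whether the numbers pair the samples was not settled. For day 9 against KO, same-numbered pairs had r of 0.02 to 0.09 and the others -0.07 to 0.02. For day 1 against KO these were 0.04 to 0.19 and -0.14 to 0.07. Each library correlated best with its own number in 3 of 3 cases for day 9 against KO and in fewer elsewhere. With the replicate block 7936, 1969, 4621, 4305, 1454 and 3718 genes passed in the order of the comparisons in the report, and UVSSA passed against KO at day 3 (0.0397) and day 9 (0.0483). Count tests by edgeR and DESeq2 were not run because whole reads were not recovered, and the authors give no p for day 9 against day 3 or WT.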
